A study of Mus musculus with 8 samples.

Results

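10 genes of embryonic macrophages were followed through 8 RNA sequencing libraries of the mouse trachea at E13.5, the embryonic day when tracheal cartilage starts to form. They were Csf1r, Cx3cr1, C1qa, C1qb, C1qc, Mrc1, Cd14, Lyz2, Tyrobp and Slc40a1, which are 10 of the 23478 gene symbols in each of the 2 deposited count tables. They were chosen by symbol, with their levels in mutant and control libraries already known, so those levels are described here without a test.

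The first table held sorted tracheal cells. In it, 2 mutant libraries carried Bmp4flox/flox, Foxg1Cre+, γSMAeGFP (called Bmp4 mutants), and 3 control libraries carried Bmp4flox/flox and γSMAeGFP without Cre. All 5 came from cells that stained negative for EPCAM and showed no GFP, a gate meant to remove epithelium and smooth muscle, and the labels call the cells that remain chondroblasts. The second table held whole tracheas, with 1 library of Wls flox/flox, ShhCre+ (called the Wls mutant) and 2 control libraries of Wls flox/flox without Cre. The mutants and controls of a table thus shared the floxed alleles, and in the sorted cells also the GFP reporter. Wls is needed for the release of Wnt proteins, and ShhCre acts in the epithelium of the airway. The labels do not say in which tracheal cells Foxg1Cre acts, nor whether the libraries of a group came from separate or pooled embryos, so p-values here reflect only how far these libraries vary, and that variation could be technical.

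Macrophages of the mouse embryo arise from precursors of the yolk sac and fetal liver and settle in tissues before birth, where they clear dying cells and recycle iron. They depend on signals through the receptor CSF1R. They are the main source of C1q, the protein that starts the classical complement cascade, and they carry scavenger and pattern receptors on their surface. The gate of the sort used no macrophage protein.

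The C1q chains are encoded side by side on chromosome 4 in GRCm38, all on the minus strand, with C1qb at 136880129 to 136886187, C1qc at 136889804 to 136893065 and C1qa at 136895917 to 136898803. The bases before the start of C1qb and C1qc are shown because these neighbours encode chains of the same protein. Those of Mrc1, on the plus strand of chromosome 2, are shown because they hold the most matches to the motif among the windows used for these genes. All 3 sequences come from RefSeq sequences of GRCm38.p6, 250 bases up to the start of each transcript, written 5′ to 3′ on the strand of the gene. The spans of the C1q genes above come from GENCODE, whose starts can differ from those of RefSeq. Part of the C1qc window thus lies within the span given for C1qc, and distances below are from the RefSeq start. Capitals mark GAGGAA or its reverse complement TTCCTC, letters at the core of sites bound by PU.1, the transcription factor of the myeloid lineage that Spi1 encodes.
C1qb, chr4:136886201-136886450, minus strand: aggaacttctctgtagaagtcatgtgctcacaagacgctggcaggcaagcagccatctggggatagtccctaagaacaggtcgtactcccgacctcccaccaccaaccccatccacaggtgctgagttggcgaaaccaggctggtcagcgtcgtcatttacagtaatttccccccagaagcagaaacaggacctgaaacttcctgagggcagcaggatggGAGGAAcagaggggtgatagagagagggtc
C1qc, chr4:136892915-136893164, minus strand: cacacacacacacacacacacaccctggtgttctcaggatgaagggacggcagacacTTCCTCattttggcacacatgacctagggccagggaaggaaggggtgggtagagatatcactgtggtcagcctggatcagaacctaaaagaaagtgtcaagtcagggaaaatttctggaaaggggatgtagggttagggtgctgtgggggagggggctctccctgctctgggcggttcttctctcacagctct
Mrc1, chr2:14229164-14229413, plus strand: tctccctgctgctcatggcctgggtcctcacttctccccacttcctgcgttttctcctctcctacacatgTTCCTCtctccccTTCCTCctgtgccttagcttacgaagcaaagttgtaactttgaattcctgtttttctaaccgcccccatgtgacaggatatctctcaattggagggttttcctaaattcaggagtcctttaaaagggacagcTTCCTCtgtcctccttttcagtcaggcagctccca
In these windows C1qb had 1 match, 30 bases before its start, and C1qc had 1, 193 bases before its start on the opposite strand. Mrc1 had 3 matches, all on the opposite strand, which began 180, 167 and 35 bases before its start. Windows of 250 bases before and 50 after the start were searched on both strands, and the letters occurred in 28.3% of all 32851 windows and in 3 of the 5 windows used for these genes, those of C1qb, C1qc, Mrc1, Cx3cr1 and Lyz2. The last of these, Cx3cr1 and Lyz2, had no match, which says only that the letters are not in that window. Matches are given as a description of sequence and not as binding.

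Depth was lower in the Bmp4 mutants, at 12964287 and 15462780 counts, than in their controls, at 48876948 to 55492747, and it was 24596836 counts in the Wls mutant, against 27237573 and 31399982 in its controls. Bmp4 had 24.1 and 32.2 CPM (counts per 1000000 counts of the library, scaled by TMM factors) in the Bmp4 mutants, against 124, 99.2 and 121 in their controls, and Wls had 65.8 CPM in the Wls mutant, against 153 and 146 in its controls. Sox9 and Col2a1, genes of cartilage precursors, were present in all sorted libraries and lower in the Bmp4 mutants: Sox9 had 162 and 469 CPM there, against 1946, 1090.1 and 733 in controls. The summed level of 10 smooth muscle markers was 1763 and 400 CPM in the Bmp4 mutants, against 220, 223 and 260 in their controls, with 7 of the 10 called higher (edgeR adjusted p under 0.05, as were 39.3% of all genes tested), and 2886 CPM in the Wls mutant, against 2121 and 1852 in its controls. The Bmp4 mutant libraries stood apart in that 4349 genes without a count in any sorted control had 21.16 and 19.58 counts per kilobase of exon in the mutants. The summed level of 1445 odorant and vomeronasal receptor genes, which tracheal cells are not known to use, was 2452 and 2201 CPM in the Bmp4 mutants, against 11.5, 14.8 and 10.9 in their controls. It was 75.5 CPM in the Wls mutant, against 61.9 and 80.9 in its controls. Sorted-cell values are therefore given as deposited. Fold changes of the 10 genes are also given after an even background, at the rate of the 4349 genes, was taken off the mutant counts. The receptor genes had a lower rate, 13.78 and 14.76 counts per kilobase in the Bmp4 mutants, so the background differed between sets of genes and its shares are approximate. The background came to 1.83% to 15% of the mutant counts of Csf1r, Cx3cr1 and the C1q genes, and to 65.4% and 32.1% of those of Mrc1.

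In the sorted cells, the receptors, the C1q genes, Mrc1, Cd14, Tyrobp and Slc40a1 had higher mean levels in Bmp4 mutants than in controls, and Lyz2 had a lower mean. The log2 fold changes (Bmp4 mutant over control) of the 10 genes ranged from -2.19 for Lyz2 to 1.86 for Slc40a1, with a median of 0.62 beside 0.53 over all 21665 genes tested and -0.40 over the 9342 of them whose level was above the background limit, set at 3 times the background for their exon length. In 5 of the 10 genes both Bmp4 mutants lay above all 3 controls, as they did in 48.2% of all genes tested. The share was 7.57% among genes above the background limit, a set that leaves out Mrc1, which is among the 5, and Cd14. In the other 5 genes the groups overlapped. The choice of these genes used this contrast, so nothing is read from their counts.

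Csf1r encodes the receptor for CSF1 and interleukin 34 on which macrophages depend. It had 80.6 and 68.2 CPM in Bmp4 mutants, against 47.9, 41.3 and 38.4 CPM in controls. Both mutants were above all controls. The log2 fold change was 0.81 as deposited and 1.26 after the background was taken off, when the mutants held 109 and 82.8 CPM against 44.3, 39.2 and 36.5 in controls. In bulk libraries such as these, a change in the number of macrophages and a change in the RNA that each one holds cannot be told apart.

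Cx3cr1, the receptor for fractalkine that marks yolk-sac macrophages and microglia, had 38.8 and 43.4 CPM in Bmp4 mutants, against 22.1, 29.6 and 25.5 CPM in controls. The groups did not overlap, and the log2 fold change was 0.68 as deposited and 1.03 without the background.

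The 3 chains of C1q all had higher mean levels in Bmp4 mutants, but C1qa differed from C1qb and C1qc in overlap between groups. C1qa had 18.6 and 19.1 CPM in Bmp4 mutants, against 12.9, 10.1 and 12.9 in controls. C1qb had 47.5 and 66.0 CPM in Bmp4 mutants, against 41.3, 44.0 and 50.8 in controls. C1qc had 32.9 and 47.2 CPM in Bmp4 mutants, against 35.6, 28.9 and 31.5 in controls. For C1qa both mutants were above all controls, while for C1qb and C1qc the second mutant was highest and the first lay among the controls. Log2 fold changes were 0.66 for C1qa, 0.32 for C1qb and 0.33 for C1qc. Without the background they were 1.10, 0.82 and 0.80 in that order, and then neither C1qb nor C1qc overlapped between groups. That made 6 of the 10 genes without overlap. Both mutants lay above all controls in 20.9% of the 9342 genes above the background limit, which leave out Mrc1 and Cd14. C1qb then had 67.0 and 83.9 CPM in Bmp4 mutants, against 38.2, 41.8 and 48.3 in controls.

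Per kilobase of exon, C1qb made up the largest share of the 3 chains in every library, at 49.1% and 51.3% in Bmp4 mutants and 47.5%, 54.5% and 54.8% in their controls. C1qa took the smallest share in the sorted cells, 20.1% and 15.5% in Bmp4 mutants and 15.5%, 13.1% and 14.5% in controls. The tracheas, which were prepared with another kit, held 30.8% C1qa in the Wls mutant and 29.0% and 29.5% in controls. The first Bmp4 mutant had the highest C1qa share of the sorted libraries, and the second was equal to the first control.

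**Figure D1:**
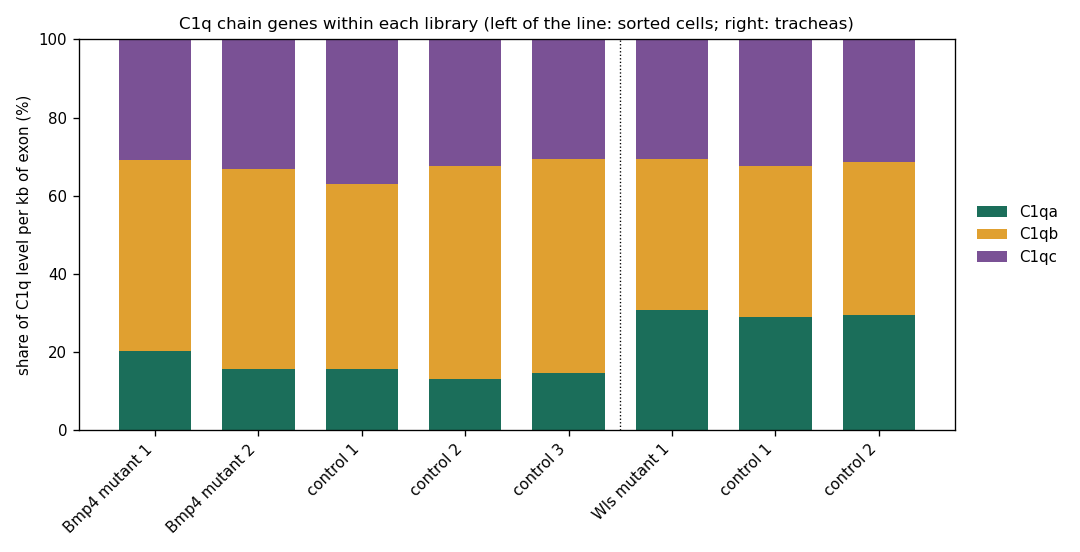
Share (%) of C1qa, C1qb and C1qc in their summed level per kilobase of exon, 1 stacked bar a library, mutants left of controls within each kind of sample. C1qa holds 13.1% to 20.1% in the 5 sorted-cell libraries and 29.0% to 30.8% in the 3 tracheas.

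Mrc1 encodes the mannose receptor CD206, a scavenger receptor of resident macrophages that some endothelium also carries. It had 12.7 and 18.6 CPM in Bmp4 mutants, against 7.64, 7.15 and 5.32 CPM in controls, a log2 fold change of 1.22 with no overlap. Without the background it had 6.42 and 16.4 CPM in Bmp4 mutants, against 7.05, 6.79 and 5.05 in controls, so the first mutant then lay among the controls. That overlap holds for the rate of the 4349 genes. The lower rate of the receptor genes would take less off, and levels of Mrc1 at that rate are not given here. The long exons of Mrc1 left it under the background limit, and it has no fitted value on that scale.

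Cd14, the co-receptor that hands lipopolysaccharide to TLR4, was the least abundant of the 10 genes by CPM. It had 5.70 and 8.49 CPM in Bmp4 mutants, against 2.03, 5.10 and 7.17 CPM in controls. The groups overlapped, with a log2 fold change of 0.58, and the background made up 44.5% and 21.4% of the mutant counts. Cd14 too was under the background limit. The other 8 genes were above it, and all 10 passed edgeR's filter on low counts in both tables.

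Tyrobp encodes DAP12, the signalling adaptor of TREM2 and other myeloid receptors. It had 46.1 and 29.4 CPM in Bmp4 mutants, against 21.2, 32.5 and 42.3 CPM in controls. The highest and the second-lowest of the 5 values were both mutants, so the groups overlapped. The log2 fold change of 0.24 turned to -0.15 without the first Bmp4 mutant, and it was 0.77 without the background.

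Lyz2 encodes lysozyme M, an enzyme against bacterial walls made by macrophages, monocytes and neutrophils. It had 27.1 and 63.4 CPM in Bmp4 mutants, against 283, 62.7 and 276 CPM in controls. The second mutant and the second control held nearly the same level, and the other 2 controls held the highest. The log2 fold change was -2.19 as deposited and -1.73 without the background, opposite in sign to that of the other 9 genes. Its near-identical copy Lyz1, whose reads may be split between the pair, had 1.75 and 2.83 CPM in Bmp4 mutants, against 2.70, 0.75 and 4.30 in controls.

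The summed level of 10 neutrophil markers followed nearly the same order of libraries as Lyz2, but not every marker did so. The sum, which includes S100a8 and Ngp, was 170 and 417 CPM in Bmp4 mutants, against 1021, 250 and 1299 CPM in controls. Of the 10 markers, 7 had negative and 3 positive log2 fold changes. Mpo, among the positive ones, had 112 and 39.6 CPM in Bmp4 mutants, against 1.39, 46.9 and 74.4 in controls. Ngp, a granule protein of neutrophils, had 3.43 and 33.6 CPM in Bmp4 mutants, against 334, 53.4 and 331 in controls, and 1 of the 10 markers was called higher and 3 lower, beside 39.3% and 15.6% of all genes tested. After subtraction 9 of the markers were tested and 0 were called by edgeR. At an unadjusted p under 0.05, 0 were higher and 3 lower, beside 1126 higher and 935 lower of all 9342 genes. The part of these cells in the Lyz2 values was not tested. None of the 10 markers was at 0 in all sorted controls. Relative to C1qb in the same library, Lyz2 stood at 0.571 and 0.961 in Bmp4 mutants, against 6.84, 1.43 and 5.43 in controls.

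Slc40a1 encodes ferroportin, the iron exporter by which macrophages release the iron of engulfed red cells. It had 46.3 and 92.6 CPM in Bmp4 mutants, against 19.6, 19.1 and 18.9 CPM in controls. The controls lay close together and both mutants stood above them, with a log2 fold change of 1.86 as deposited and 2.28 without the background. The fold rested in part on the second mutant and was 1.27 without it. In CPM, Slc40a1 stood at 0.574 and 1.36 times Csf1r in Bmp4 mutants and at 0.409, 0.463 and 0.491 times in controls.

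Red cell precursors also carry ferroportin, and their markers differed widely among the sorted libraries. The sum of 10 erythroid genes was 126714 and 1333 CPM in Bmp4 mutants, against 36.1, 9298 and 9747 CPM in controls. The first mutant was highest, and the second mutant, in which Slc40a1 was highest, had the second-lowest sum. Hbb-y, an embryonic globin, had 99712 and 800.5 CPM in Bmp4 mutants, against 3.75, 8128 and 7464 in controls. The part of red cells in the Slc40a1 values was not tested.

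**Figure D2:**
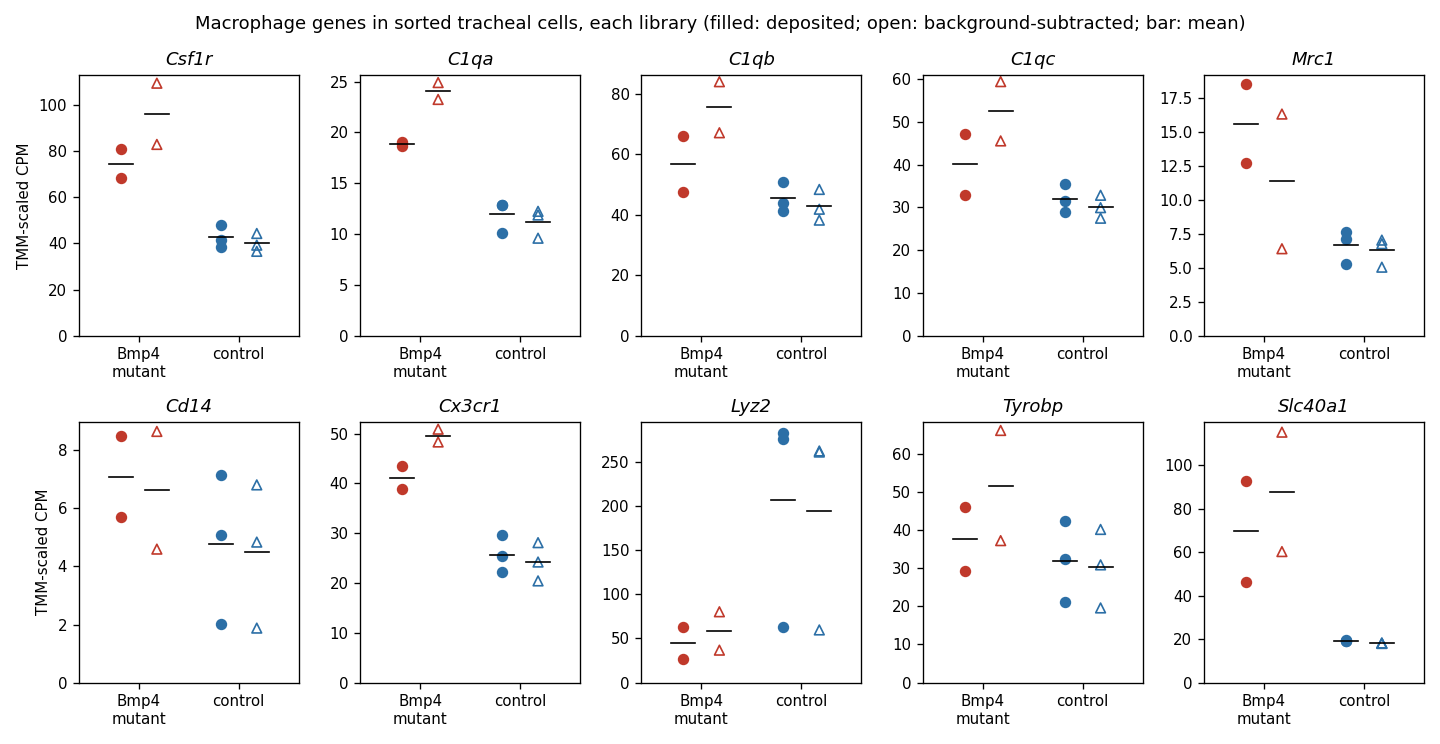
TMM-scaled CPM of each of the 10 genes in the sorted cells, 1 panel a gene, with the 2 Bmp4 mutants left and the 3 controls right. Filled points are deposited counts, open points are counts after the even background was taken off, and bars are means. Slc40a1 shows mutants at 46.3 and 92.6 above controls at 18.9 to 19.6, and Lyz2 shows controls from 62.7 to 283.

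**Figure D3:**
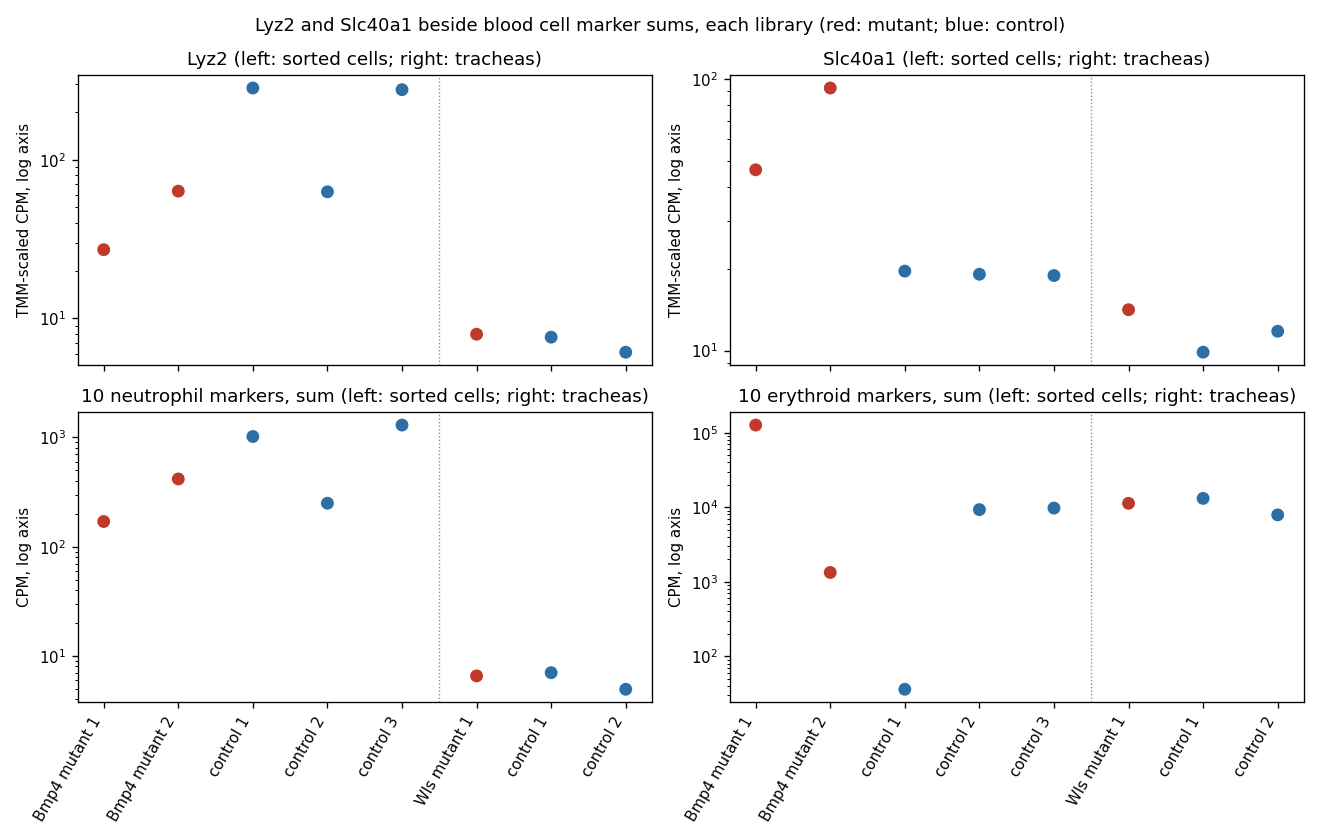
Lyz2 and Slc40a1 (TMM-scaled CPM) above the summed CPM of 10 neutrophil and 10 erythroid markers, by library and on log axes, with mutants in red left of controls in blue. Sorted controls 1 and 3 are highest for Lyz2 (283 and 276) and for the neutrophil sum (1021 and 1299), while the erythroid sum is highest in the first Bmp4 mutant (126714).

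Levels of different genes were compared per kilobase of exon. In the sorted controls Lyz2 was highest with a mean of 157 CPM per kilobase, though from 47.7 to 215 over the 3 libraries, and its range overlapped that of Tyrobp, next at 56.8 (37.6 to 75.0). C1qb followed at 41.7 (38.0 to 46.7), within the range of Tyrobp, and C1qc at 26.6 (24.0 to 29.6) lay clear of both. C1qa at 11.5 (9.71 to 12.4) and Csf1r at 11 (9.93 to 12.4) did not differ beyond their spread. Cx3cr1 at 6.85 (5.89 to 7.88) and Slc40a1 at 5.70 (5.60 to 5.82) came next, just clear of each other. Cd14 at 2.90 (1.24 to 4.37) and Mrc1 at 1.25 (0.99 to 1.42) were last and overlapped.

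In the trachea controls the order began with C1qb at a mean of 14.5 CPM per kilobase, C1qc at 12, Tyrobp at 11.5 and C1qa at 10.9, whose ranges overlapped. Csf1r at 7.77 and Lyz2 at 5.22 followed, clear of each other, then Cx3cr1 at 3.57, Mrc1 at 3.42 and Slc40a1 at 3.21, which overlapped, and Cd14 was last at 0.555. Lyz2 thus held place 1 in the sorted controls and place 6 in the trachea controls, and Mrc1 places 10 and 8. The tables differ in kit and in the cells they hold, and the difference in order was not tested.

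In whole tracheas, 9 of the 10 genes were higher in the Wls mutant than in both controls, and Csf1r lay between its controls. The log2 fold changes (Wls mutant over control) ranged from -0.03 to 0.56, with a median of 0.37 beside -0.01 over all 15815 genes tested. In 36.9% of all genes tested the single mutant lay above both controls. Since the contrast was used to choose these genes, nothing is read from their count.

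C1qa had 16.7 CPM in the Wls mutant, against 13 and 9.70 CPM in controls, with a log2 fold change of 0.56, the highest of the 10. C1qb had 21.9 CPM in the Wls mutant, against 18.0 and 13.46 in controls. C1qc had 19.1 CPM in the Wls mutant, against 16.8 and 12 in controls. In all 3 the mutant lay above both controls and the second control was lowest, and the log2 fold changes of C1qb and C1qc were 0.48 and 0.41.

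Csf1r had 29.5 CPM in the Wls mutant, against 31.9 and 28.2 CPM in controls. The mutant lay between its controls, and the log2 fold change of -0.03 became 0.08 without the first control. Cx3cr1 had 17.1 CPM in the Wls mutant, against 15.3 and 11.5 in controls, and its fold change was 0.36 on the log2 scale.

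Mrc1 had 22.9 CPM in the Wls mutant, against 17.7 and 19.1 CPM in controls, with a log2 fold change of 0.32. Its ratio to Csf1r in CPM was 0.776 in the Wls mutant, against 0.556 and 0.676 in controls, while in the sorted cells it was 0.158 and 0.272 in Bmp4 mutants, against 0.159, 0.173 and 0.138 in controls. The ratio was higher in each of the 3 tracheas than in any of the 5 sorted libraries. Endothelial markers, summed over 10 genes, were at 389 CPM in the Wls mutant, against 488 and 546 CPM in controls, and at 320 and 262 CPM in Bmp4 mutants, against 62.8, 167 and 116 CPM in controls. Their part in the Mrc1 values was not tested.

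Lyz2 had 7.95 CPM in the Wls mutant, against 7.62 and 6.12 CPM in controls, a log2 fold change of 0.21. The neutrophil sum was low here, 6.55 CPM in the Wls mutant, against 7.01 and 4.94 CPM in controls. Lyz2 stood at 0.363 times C1qb in the Wls mutant, against 0.422 and 0.455 times in controls, lower than in any sorted library.

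Tyrobp had 8.73 CPM in the Wls mutant, against 7.32 and 5.69 CPM in controls (log2 fold change 0.43). Slc40a1 had 14.1 CPM in the Wls mutant, against 9.86 and 11.8 CPM in controls (log2 fold change 0.38). The erythroid sum was 11299.6 CPM in the Wls mutant, against 13154 and 7903 CPM in controls, so the mutant lay within its controls there but above them for Slc40a1. Cd14 had 1.07 CPM in the Wls mutant, against 0.86 and 0.96 CPM in controls. The mutant value came from 26 counts, with an exact binomial 95% interval of 0.696 to 1.56 CPM, so no difference was detectable at this depth. Such intervals cover counting error only.

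For scale, a rule of size without a test asked for a log2 difference of at least 1, a level of 3 or more in mean log2 CPM, and a mutant farther outside its controls than they were from each other. None of the 7 genes with that mean level was past it, while 0.367% of all 10897 genes with that level were past it as higher and 0.697% as lower.

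**Figure D4:**
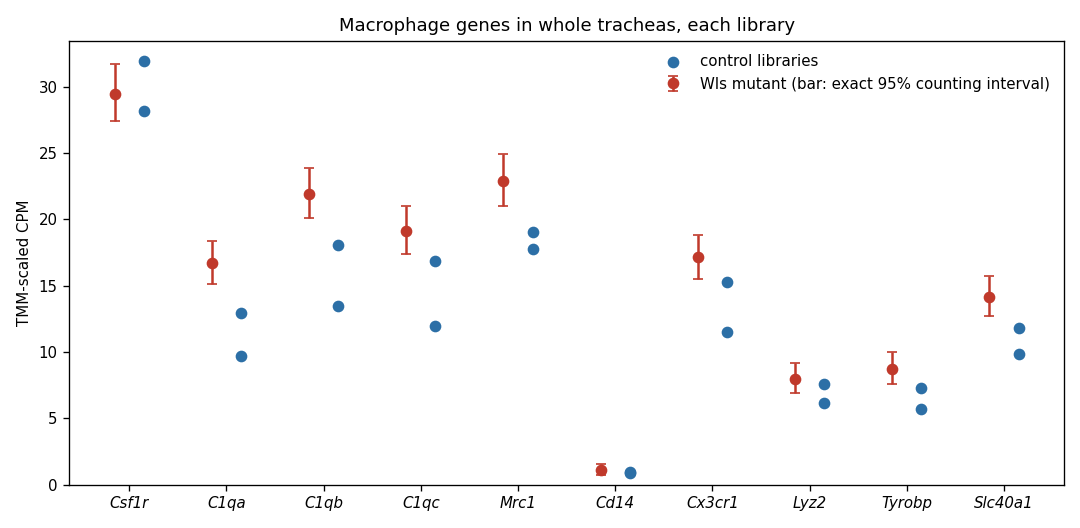
TMM-scaled CPM of the 10 genes in whole tracheas, with the Wls mutant (red, left, with its exact 95% counting interval) and the 2 controls (blue, right). The mutant lies above both controls except for Csf1r, at 29.5 against 31.9 and 28.2.

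In the sorted cells Lyz2 was the gene with a negative log2 fold change, and in the tracheas it was Csf1r. Slc40a1, with the largest positive log2 fold change in the sorted cells, 1.86, had 0.38 in the tracheas.

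Other genes of macrophages and of the same pathways were counted in 9 lists of 88 genes and tested over the whole table with edgeR's quasi-likelihood test, with Benjamini-Hochberg adjustment. Without subtraction, in the sorted cells, 36 of the 88 were called higher in Bmp4 mutants and 0 lower, beside 39.3% of all genes tested called higher and 15.6% called lower. Of the 36, 5 were above the background limit, where 3.71% of all genes were called higher, and 11 had under 1 CPM on average in controls. Without the first Bmp4 mutant 7 were called higher, and without the second control 23. The median log2 fold change of the 88 was 0.98, beside 0.53 over all genes.

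After the background was taken off, 33 of the 88 were above the limit and all 33 had positive log2 fold changes, with a median of 0.74. The limit was applied to the mean over mutants and controls together, so a gene high in the mutants could pass through them. Counts of positive genes on this scale are therefore partly set by the filter, here and in the lists below. Over all 9342 genes 4619 were positive, with a median of -0.01. Several lists of other cells were also mostly positive on this scale: 9 of 9 fibroblast markers (median 1.31), 6 of 6 endothelial (1.30), 7 of 7 smooth muscle (2.97), 7 of 7 erythroid (3.77) and 6 of 7 neural and neural crest markers (1.06). Of the cartilage markers 1 of 10 was positive (-1.35), and of the neutrophil markers 3 of 9 (-1.39). The 5 called genes above the limit, Irf8, Slc48a1, Trf, Csf1 and Fcgr3, were among the 33 and stayed positive. Nothing is read from their sign, since the limit could be passed through the mutants, as it was by Csf1. edgeR called 0 of the 33, beside 0.749% of all genes called higher and 0.343% lower. At an unadjusted p under 0.05, edgeR had 15 of the 33 higher and 0 lower, beside 1126 higher and 935 lower of all 9342 genes. DESeq2 called 10 of the 33 with adjustment, and its share over all genes is not given here. Without the second Bmp4 mutant edgeR called 5.

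Of the single lists, the subtracted counts left 7 pan-leukocyte genes (median log2 fold change 0.91), 6 myeloid receptors and effectors (0.58), 3 resident macrophage genes (0.51), 2 microglia-type genes (0.37), 1 monocyte gene (1.33), 2 transcription factors (0.91), 1 complement partner (1.09), 9 iron genes (1.59) and 2 receptor partners (0.85). The values by list that follow are from the deposited counts. Pan-leukocyte genes had 2 of 10 called higher, with a median log2 fold change of 0.57. Ptprc, the phosphatase CD45 of all white cells, had 27.0 and 21.5 CPM in Bmp4 mutants, against 4.04, 10.4 and 10.8 CPM in controls, and rose by 1.53 ± 0.44 in log2 (SE, edgeR adjusted p = 0.021), with 29.4% and 26.4% of its mutant counts at the level of the background. Laptm5, a lysosomal membrane protein of blood cells, had 110 and 65.0 CPM in Bmp4 mutants, against 32.7, 63.8 and 59.3 CPM in controls (log2 0.75 ± 0.33, edgeR adjusted p = 0.087). Arhgdib, a regulator of small GTPases, overlapped between groups, at 113 and 72.0 CPM in Bmp4 mutants, against 73.5, 95.7 and 114 CPM in controls.

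Of the 16 myeloid receptors and effectors, 6 were called higher, with a median of 0.70. Fcer1g, an adaptor chain of Fc receptors and the closest partner of Tyrobp here, had 25.9 and 22.1 CPM in Bmp4 mutants, against 19.0, 21.8 and 28.6 CPM in controls (log2 0.05 ± 0.24). Cd68, a lysosomal protein of macrophages, had 11.5 and 12.1 CPM in Bmp4 mutants, against 13.3, 7.46 and 12.4 CPM in controls (log2 0.10 ± 0.35). Emr1, which encodes the macrophage antigen F4/80, had 13.51 and 15.3 CPM in Bmp4 mutants, against 4.67, 9.11 and 7.96 CPM in controls (log2 0.99 ± 0.38, edgeR adjusted p = 0.059). Lgmn, a lysosomal protease, had 52.7 and 48.1 CPM in Bmp4 mutants, against 45.3, 44.7 and 49.0 CPM in controls. Fcgr3, a low-affinity receptor for IgG that was named after its values were seen, had 29.1 and 17.4 CPM in Bmp4 mutants, against 7.85, 11.1 and 13.4 CPM in controls (log2 1.11 ± 0.34, edgeR adjusted p = 0.028). Fcer1g and Cd68 overlapped between groups as Tyrobp did, while for Emr1 both mutants lay above all controls as for Csf1r.

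Of the 15 genes of resident macrophages, 7 were called higher, with a median of 1.23, and none of the 7 was above the background limit. Lyve1, a hyaluronan receptor of such macrophages and of lymphatic endothelium, had 8.18 and 7.02 CPM in Bmp4 mutants, against 1.31, 1.26 and 0.748 CPM in controls (log2 2.78 ± 0.53, edgeR adjusted p = 0.0044), with 54.7% and 45.7% of its mutant counts at the background level. Stab1, a scavenger receptor, had 45.9 and 15.1 CPM in Bmp4 mutants, against 14.4, 11.8 and 10.3 CPM in controls (log2 1.32 ± 0.44, edgeR adjusted p = 0.037, and adjusted p = 0.51 without the first Bmp4 mutant). Dab2, an endocytic adaptor that many mesenchymal cells also use, had 214 and 400 CPM in Bmp4 mutants, against 549, 371 and 331 CPM in controls. Lyve1 and Stab1 were also expressed in the tracheas, where Lyve1 had 7.50 CPM in the Wls mutant, against 8.10 and 7.96 CPM in controls, and Stab1 had 74.3 CPM in the Wls mutant, against 104 and 108 CPM in controls (log2 -0.52 ± 0.18, edgeR adjusted p = 0.075).

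Microglia-type genes had 2 of 7 called higher (median 0.49). Tmem119, a microglial surface protein that bone-forming cells also make, had 310 and 365 CPM in Bmp4 mutants, against 389, 416 and 343 CPM in controls, with overlap between groups. Monocyte genes had 2 of 6 called higher (median 1.16). Ccr2, the chemokine receptor of circulating monocytes, had 27.3 and 14.4 CPM in Bmp4 mutants, against 0.898, 11.8 and 10.1 CPM in controls (log2 1.46 ± 0.87, edgeR adjusted p = 0.19), and its lowest value was in the first control, which also had the lowest erythroid sum. Plac8, another monocyte gene, had 18.2 and 7.02 CPM in Bmp4 mutants, against 4.55, 7.50 and 8.66 CPM in controls.

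Of the 8 myeloid transcription factors, 4 were called higher (median 0.85). Spi1 itself had 20.7 and 11.4 CPM in Bmp4 mutants, against 11.9, 12.2 and 15.4 CPM in controls, with the second mutant lowest of the 5 (log2 0.29 ± 0.33, edgeR adjusted p = 0.48). Irf8, needed for monocyte and microglia development, had 46.5 and 31.9 CPM in Bmp4 mutants, against 16.5, 27.3 and 21.8 CPM in controls (log2 0.84 ± 0.27, edgeR adjusted p = 0.033). Runx1, a factor of blood stem cells and also of cartilage precursors, had 25.8 and 26.2 CPM in Bmp4 mutants, against 13.4, 13.2 and 16.3 CPM in controls (log2 0.86 ± 0.22, edgeR adjusted p = 0.015), with 44.7% and 31.6% of its mutant counts at the background level.

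The complement partners of C1q had 6 of 8 called higher, with a median of 2.63 in the deposited counts, where 7 of the 8 were under the background limit. C1ra, a protease of the C1 complex, had 12.2 and 6.74 CPM in Bmp4 mutants, against 0.84, 1.79 and 0.706 CPM in controls (log2 3.09 ± 0.61, edgeR adjusted p = 0.005). C1s, the other protease of the complex, had 10.1 and 13.6 CPM in Bmp4 mutants, against 0.918, 3.13 and 2.99 CPM in controls (log2 2.33 ± 0.59, edgeR adjusted p = 0.014). The background made up 24.3% to 49.0% of the mutant counts of C1ra and C1s, and neither was above the limit. Serping1, the inhibitor of C1 and the one partner above it, had 225 and 138 CPM in Bmp4 mutants, against 75.9, 172 and 126 CPM in controls (log2 0.54 ± 0.35, edgeR adjusted p = 0.22). These partners are made by fibroblasts and liver as well as by macrophages, and the summed level of 10 fibroblast markers was 12691 and 15638 CPM in Bmp4 mutants, against 7214, 9772 and 6581 CPM in controls. Its part in these values was not tested.

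Genes of iron and haem handling, the neighbours of Slc40a1 in function, had 5 of 12 called higher (median 1.25). Slc48a1, which exports haem from the phagolysosome, had 309 and 84.0 CPM in Bmp4 mutants, against 68.7, 94.5 and 67.9 CPM in controls (log2 1.35 ± 0.47, edgeR adjusted p = 0.043, and adjusted p = 0.73 without the first Bmp4 mutant). Trf, the iron carrier transferrin, had 47.8 and 27.3 CPM in Bmp4 mutants, against 13.3, 17.8 and 19.6 CPM in controls (log2 1.15 ± 0.29, edgeR adjusted p = 0.014). In both genes the first Bmp4 mutant, with the highest erythroid sum, was highest, whereas Slc40a1 was highest in the second. The part of red cells in the values of Slc48a1 and Trf was not tested.

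The ligands and partners of the receptors had 2 of 6 called higher (median 0.63). Csf1, the main ligand of CSF1R, had 36.2 and 21.5 CPM in Bmp4 mutants, against 15.8, 16.9 and 16.7 CPM in controls (log2 0.81 ± 0.26, edgeR adjusted p = 0.036). Il34, its second ligand, had 6.21 and 1.64 CPM in Bmp4 mutants, against 0.684, 0.618 and 0.249 CPM in controls (log2 2.91 ± 0.82, edgeR adjusted p = 0.02), and the expected background was 45.5% and 123% of its mutant counts. Csf1 stayed positive without the background, at 1.05 ± 0.32, but did not pass the test there (edgeR adjusted p = 0.15). Its controls alone lay under the background limit, which it passed through the mutants. In the tracheas Csf1 had 22.0 CPM in the Wls mutant, against 20.1 and 20.6 CPM in controls.

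Cx3cl1, the ligand of CX3CR1, had 8.18 and 4.30 CPM in Bmp4 mutants, against 3.30, 4.52 and 6.98 CPM in controls. Tlr4, Ly96 and Lbp, which with Cd14 form the receptor and carrier of lipopolysaccharide, had log2 fold changes of 1.17 ± 0.63, 0.33 ± 0.51 and 0.45 ± 0.36 and none was called (edgeR adjusted p = 0.15, 0.60 and 0.31). Ly96 had 5.48 and 5.72 CPM in Bmp4 mutants, against 3.11, 3.53 and 6.69 CPM in controls, and overlapped between groups as Cd14 did. Of the 12 genes taken by the naming rule and called higher in the deposited counts, 1 was still called without the first Bmp4 mutant and 8 without the second, and 9, 8 and 7 without control 1, 2 and 3 in turn. Without the first Bmp4 mutant that gene was Lyve1.

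In the tracheas 81 of the 88 companion genes were tested, and edgeR called 2 higher in the Wls mutant and 0 lower, beside 1.88% of all genes called higher and 2.39% lower. They were Sall1 and Cebpb, which are named because the count is small. Sall1, a factor of microglia and of embryonic mesenchyme, had 9.22 CPM in the Wls mutant, against 2.80 and 3.42 CPM in controls (log2 1.56 ± 0.31, edgeR adjusted p = 0.00012). Cebpb, a factor of myeloid cells and of stressed cells of many kinds, had 13.48 CPM in the Wls mutant, against 8.03 and 5.22 CPM in controls (log2 1.03 ± 0.26, edgeR adjusted p = 0.0043). At an unadjusted p under 0.05, 7 were higher and 6 lower, beside 989 higher and 1266 lower of all 15815 genes. The test had 1 residual degree of freedom and takes the single mutant to vary like its controls, and 2 of 81 is near the background share. DESeq2 called 1 of the 81, Sall1, and the rule of size took 1, Cebpb.

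All 16 myeloid receptors and effectors had positive log2 fold changes in the tracheas, with a median of 0.41 and 0 called. At an unadjusted p under 0.05, 1 of them was higher, beside 989 of all 15815 genes. Over all 15815 genes 7626 were positive, and over the companion genes 53 of 81. The 16 genes rest on the same single mutant library, so their signs are not independent. Resident macrophage genes had 5 positive and 8 negative of 13 tested, with a median of -0.10, and complement partners 2 positive and 6 negative of 8, with a median of -0.15. Fcer1g had 7.21 CPM in the Wls mutant, against 6.42 and 3.82 CPM in controls (log2 0.50 ± 0.31, edgeR adjusted p = 0.49), a pattern near that of Tyrobp. Ptprc had 2.50 CPM in the Wls mutant, against 1.94 and 1.87 CPM in controls, and Spi1 had 3.28 CPM in the Wls mutant, against 3.03 and 2.27 CPM in controls.

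**Figure D5:**
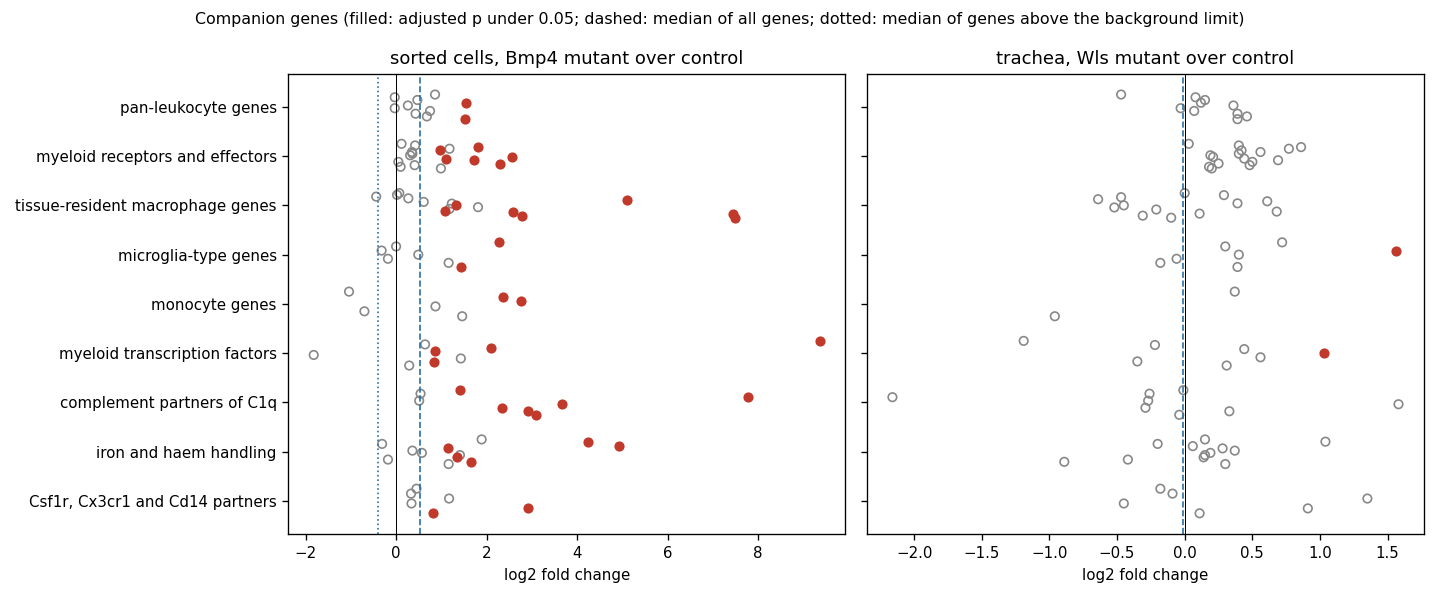
Log2 fold change, mutant over control, of each companion gene by list, in the sorted cells (left) and tracheas (right). Filled points passed an edgeR adjusted p of 0.05, the dashed line is the median of all genes tested, and the dotted line the median of genes above the background limit. In the sorted cells 36 points are filled and in the tracheas 2, and fitted values of genes near 0 in controls are not bounds.

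Scaling moved the sorted-cell values. With scaling factors taken only from genes above the background limit, the median log2 fold change over all genes in the sorted cells moved to 0.93, against 0.53 as reported, and the median of the 10 macrophage genes to 1.0. Calls over the whole table then split into 9905 higher and 755 lower, against 8507 higher and 3381 lower. With library totals only they split into 9141 higher and 1245 lower, with a median of 0.84 for the 10 genes beside 0.75 for all genes. The 9 genes other than Lyz2 were positive and Lyz2 negative under each of these scalings.

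The genes with the profile most like the mean of the 10 over all 8 libraries were found by the root mean square difference in log2 CPM, centred on the control mean of each table, among 11290 genes with at least 5 CPM in both tables. The nearest was Plekha3, at a difference of 0.07, followed by Mrm1, Sertad3, Slc35f1, Fam43a, 1300002E11Rik, Tmem161b, Zfp53 and Mlh3. Ctss, the lysosomal cathepsin S and a gene of the myeloid list, was in place 10 at 0.125. The median over all eligible genes was 0.509. Of the 10 genes themselves C1qb was nearest to their mean at 0.121, then C1qc at 0.154, C1qa at 0.176 and Cx3cr1 at 0.194, while Slc40a1 at 0.684 and Lyz2 at 1.393 were farther from it than the median gene. Each of the 10 is part of that mean, which draws its own difference down, so these values are not on a par with those of other genes.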

How the data were processed

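The labels' protocols name Trizol for RNA isolation, SMART-Seq v4 for the sorted cells, Ovation v2 for the tracheas and Nextera XT for both. As the kits differ, tests stayed within a table. Per the submitters' processing notes, Bowtie2, Cufflinks, DESeq and the build mm10 were used, and for sorted cells Trim Galore. No counting program, strand setting or annotation is named in the labels or notes, so reads of overlapping antisense genes and of near-identical copies cannot be told apart. The authors deposited whole-number counts per gene, which were used unchanged. All 10 symbols were found in both tables.

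The tests used edgeR 4.0.16 under R 4.3.3 (limma 3.58.1), with its quasi-likelihood F test, TMM scaling and the default filter by group, and called genes at 0.05 after Benjamini-Hochberg adjustment across all tested genes. The sorted-cell test had 2 mutants against 3 controls and the trachea test 1 against 2. DESeq2 1.42.0, other scalings and filters, a replicate block and leaving out each library were alternatives, and scaling by library totals and a background rate from receptor genes were chosen after seeing the data. TMM factors enter the CPM of single genes but not of list sums.

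For each Bmp4 mutant, an even background per kilobase of exon was estimated from genes without counts in the sorted controls, taken off each gene (floored at 0) and rounded. It came to 11.32% and 8.781% of the mutant counts. Genes were kept where their mean CPM over all sorted libraries, mutants included, was over 3 times the larger mutant background for their length. Since totals shrink, remaining mutant CPM rise. Exon lengths came from GENCODE transcripts of GRCm38, the assembly behind mm10, linked to RefSeq. Fits were tested on simulated data.

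The 10 genes and the lists were chosen with earlier results of these data known. Of the 88 companion genes, those called in the deposited counts with the same sign after subtraction are named, or, where a list had fewer than 2, its 2 most abundant, plus partners in the same complex or family; some of these are not reported here. Reads carry no molecular identifiers. Replicate pairs differed by 24.5 to 193 times counting noise, and each library was counted on its own.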

Additional observations from a re-analysis of the deposited data

How the results depend on the processing

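Of the 10 macrophage genes, only Tyrobp in the sorted cells (-0.15 without the first Bmp4 mutant) and Csf1r in the tracheas (0.08 without the first control) changed sign in log2 under any alternative run. In the sorted cells the 11888 genes called became 3595 to 10478 when each library was left out in turn, and the 36 listed genes called higher became 7 to 31. The replicate block gave 4 genes called and 0 listed genes, but same-numbered libraries did not deviate together (correlations of deviations -0.341 and -0.245 over 9343 genes), so the numbers do not pair the samples. After background subtraction 0 listed genes were called, against 10 with DESeq2, 11 without a filter and 0 to 5 with each library left out. For the subtracted counts, scaling from genes above the limit was the same by construction and was not run.

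In the tracheas 676 genes and 2 listed genes were called. DESeq2 called 268 and 1, library totals gave 437 genes, and the rule of size gave 116 and 1, or 111 to 179 and 0 to 1 with either control left out. No paired analysis was possible for the tracheas because the groups share fewer than 2 replicate numbers, and with a control left out no test has residual degrees of freedom. The causes were not tested. Depth limits Cd14 in the tracheas, and the background limits Mrc1 and Cd14 in the Bmp4 mutants.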
